A study of Mus musculus with 98 samples.

Results

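The samples described here are 7 of the 98 in a mouse RNA-seq series on raised ACSS2 in neurons. They are hippocampal cultures that received no virus and were harvested at 21 days in vitro: 4 were given hAD-tau and 3 were given PBS. They were chosen as the 7 columns of 1 gene count table whose names match the titles of these samples, and the row of that table with no gene name was dropped. All 7 are primary embryonic hippocampal neurons of the CD1 strain, with no sex given, kept in a neural basal medium containing 2% B27. The labels name the agent only as hAD-tau and give no dose or source for it. For the virus-treated neurons of the series, the protocol places virus at day 5 in vitro and hAD-tau or PBS at day 7, and it gives no separate schedule for the cultures without virus. No label ties a replicate to a dissection, litter or animal, so the p-values below measure the spread between these samples, which may be technical. RNA was taken from whole cultures, so every value is an average over all the cell types in the dish. In such bulk RNA, fewer cells of a type and less RNA per cell cannot be told apart.

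Tau, the protein of the Mapt gene, binds and steadies microtubules in axons. In Alzheimer disease it misfolds and aggregates, and aggregated tau that a neuron takes up can seed the aggregation of that neuron's own tau, so adding tau seeds to cultured neurons is a common model of spreading tau pathology. Heparan sulfate proteoglycans and the receptor Lrp1 are known routes by which neurons take up tau. ACSS2 makes acetyl-CoA from acetate, for lipid synthesis in the cytosol and for histone acetylation in the nucleus. Embryonic hippocampal cultures hold glutamatergic and GABAergic neurons beside astrocytes, oligodendrocyte precursors and microglia, and both neurons and glia can respond to tau.

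Between 5683314 reads (PBS replicate 1) and 29890248 reads (PBS replicate 2) were counted in named genes, and mitochondrial genes took 5.2% to 10.5% of them. The libraries held neuronal RNA, as their label says, together with glial RNA: the summed level of 15 pan-neuronal genes ran from 3051 to 7073 CPM (reads of a gene relative to all reads of its library) and that of 20 astrocyte genes from 4749 to 23090 CPM. PBS replicate 3 stood apart from the other 6 libraries. Its log2 CPM correlated with theirs at 0.915 to 0.941, against 0.967 to 0.994 among the others, and the first principal component, with 58.9% of the variance, separated it from them. The gene CT010467.1 took 0.786% of its reads in named genes, against 0.153% to 0.224% in the other 6 libraries. In PBS replicate 3 the summed oligodendrocyte precursor markers were 146 CPM against 2185 to 2597 in the other PBS libraries, 16.4-fold below their mean. Its proliferation genes were 10.6-fold below, its microglial markers 3.49-fold below and its astrocyte markers 3.28-fold below, while its pan-neuronal sum of 7073 CPM stood above the 3859 to 4225 CPM of the other PBS libraries. Tau replicate 4 had the least microglial RNA, 35.3 CPM in sum against 128 to 568 CPM in the other tau libraries. Most results are therefore given with PBS replicate 3 and without it, and a difference given once includes it unless stated. With it, the PBS group holds less glial and more neuronal RNA than without it. The part of this difference in make-up in each result was not measured directly. Only the value without PBS replicate 3 and a fit with the astrocyte level as a covariate, given below, bear on it.

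**Figure D1:**
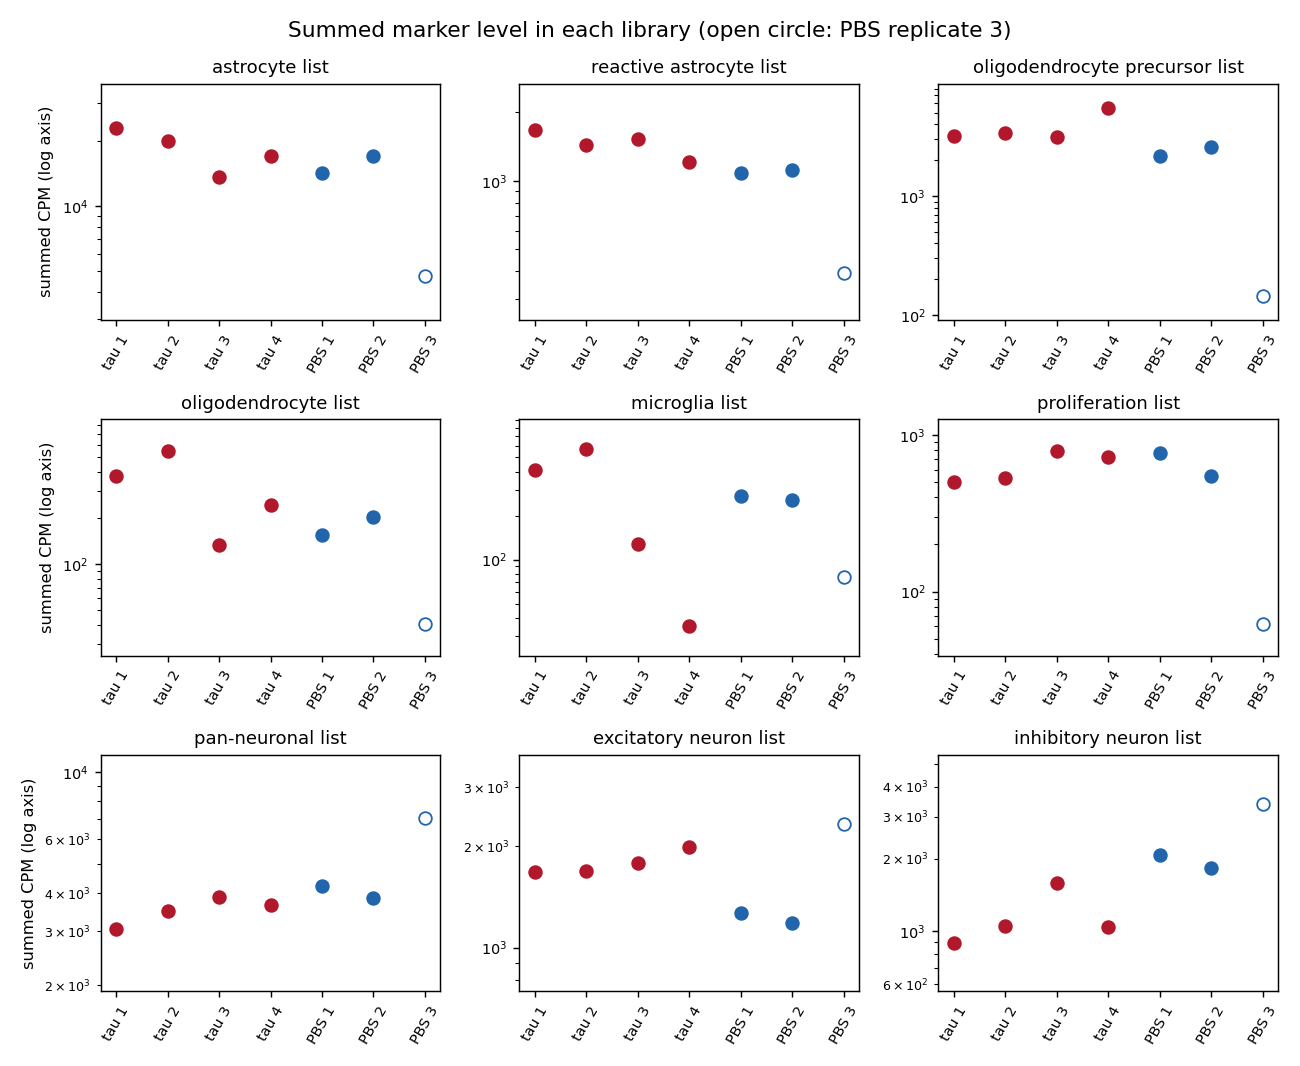
Summed CPM (log axis) of 9 marker lists in each of the 7 libraries, tau in red and PBS in blue, with PBS replicate 3 as an open circle. PBS replicate 3 is lowest for the astrocyte, oligodendrocyte precursor, oligodendrocyte and proliferation lists and highest for the 3 neuronal lists, tau replicate 4 is lowest for microglia, and inhibitory neuron markers are lower in every tau library than in every PBS library.

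The main question was which genes differ between cultures with and without tau at day 21. In the tau cultures most inhibitory neuron, glutamate receptor and GABA-A receptor genes were lower, and most reactive astrocyte genes were higher. Apoe and Acss2 were higher in every tau library, and Asns and Chac1, targets of the stress factor ATF4, were lower in every tau library. Genes such as Vwa1, Trim47 and Cntnap3 differed about 3-fold to 4-fold with no overlap between the groups, but none passed edgeR's test over all genes. Of 16341 genes tested with edgeR's quasi-likelihood test, 0 (0%) had a Benjamini-Hochberg adjusted p under 0.05, and the lowest adjusted p was 0.0506, for Trim47. At an unadjusted p under 0.05 there were 762 genes higher (4.66%) and 1510 lower (9.24%) in tau. Groups did not overlap, every tau library above every PBS library, for 1129 genes (6.91%), and every tau library lay below every PBS library for 1601 genes (9.8%). The log2 fold change was above 0 for 51.4% of genes and below 0 for 48.6%, and without PBS replicate 3 for 51.9% and 48.1%. Without PBS replicate 3, 0 of 16528 genes passed the adjusted threshold, and the unadjusted calls became even, 1013 higher (6.13%) and 1008 lower (6.1%).

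DESeq2 gave 15060 of these genes an adjusted p and called 330 (2.19%) at an adjusted p under 0.05, 126 higher (0.837%) and 204 lower (1.35%). Without PBS replicate 3 it called 354 (2.66%), 202 higher (1.52%) and 152 lower (1.14%). Same-numbered tau and PBS libraries deviated together, though numbers 1 and 2 were not distinct, and edgeR with the number as a block again called 0 genes. With the block and without PBS replicate 3 it called 529 genes higher (3.2%) and 323 lower (1.95%), with 1 residual degree of freedom: only the pairs numbered 1 and 2 then bear on the difference, and tau replicates 3 and 4 do not. With the block and all libraries, tau replicate 4 still has no PBS partner and does not bear on the difference. The numbers were paired from these same libraries, so the counts with the block given below are no separate support. The unadjusted count of 2272 was 1202 without tau replicate 1, 1437 without tau replicate 2, 1480 without tau replicate 4 and 3493 without PBS replicate 2. Because no gene passed edgeR's adjusted threshold, the values below are described as higher or lower, and the adjusted p given for a gene is edgeR's over all 16341 genes.

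Acss2 and Mapt are the genes that the study and the treatment turn on. Acss2 (chr2:155517948-155585724, plus strand, GRCm38, the build also called mm10) stood at 94.6, 73.2, 54.4 and 71.6 CPM in tau replicates 1 to 4 and 47.7, 53.1 and 33.5 CPM in PBS replicates 1 to 3. Every tau library was above every PBS library, with a log2 fold change of 0.72 ± 0.22 (SE) and an adjusted p of 0.319, and it was 0.54 without PBS replicate 3. Mapt (chr11:104231390-104332090, plus strand) stood at 317, 357, 347 and 391 CPM in tau replicates 1 to 4 and 373, 349 and 437 CPM in PBS replicates 1 to 3, and the groups overlapped. Its log2 fold change was -0.13 ± 0.13 (SE), so the cultures given tau showed no detectable difference in the level of the mRNA for their own tau.

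The 12 leading genes higher in tau were those with the largest difference that held with and without PBS replicate 3. Chosen for their size, they form no tested group, and 4 of the 12 encode extracellular matrix proteins: Vwa1, a von Willebrand factor A domain matrix protein, Itih5, an inter-alpha-trypsin inhibitor heavy chain, Fn1, fibronectin, and Fbln2, fibulin 2. Vwa1 stood at 33.4, 25.3, 26.2 and 40.5 CPM in tau replicates 1 to 4 and 8.94, 11 and 7.38 CPM in PBS replicates 1 to 3, 3.43-fold higher in tau. Fn1 stood at 210.2, 142, 75.4 and 217 CPM in tau replicates 1 to 4 and 63.6, 63.4 and 29.7 CPM in PBS replicates 1 to 3. Its lowest tau library, replicate 3, was close to the higher PBS libraries, and the log2 fold change of Fn1 was 1.63 with PBS replicate 3 and 1.34 without it. Itih5 was 1.85 higher on the log2 scale and Fbln2 1.28.

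Trim47, an E3 ubiquitin ligase of the tripartite motif family, had tight groups. It stood at 29.5, 25.7, 24.3 and 25.8 CPM in tau replicates 1 to 4 and 9.11, 9.61 and 9.11 CPM in PBS replicates 1 to 3, a 2.83-fold difference with a log2 SE of 0.13, and PBS replicate 3 did not stand apart for it. DESeq2 gave Trim47 an adjusted p of 8.06e-24 with PBS replicate 3 and 3.04e-14 without it. Tagln2, an actin-binding protein, stood at 17.8, 13.8, 18.5 and 11.7 CPM in tau replicates 1 to 4 and 4.89, 5.61 and 5.03 CPM in PBS replicates 1 to 3, with a log2 fold change of 1.57 and 1.53 without PBS replicate 3. C4b, a complement component whose reads may be shared with its near-identical copy C4a, stood at 157, 118, 159 and 61.5 CPM in tau replicates 1 to 4 and 50.3, 52.9 and 13.6 CPM in PBS replicates 1 to 3. The range of C4b within tau was wide, with replicate 4 close to the PBS libraries. S100a6, a calcium-binding protein, was 1.28 higher on the log2 scale, Zfp36, which speeds the decay of cytokine mRNAs, 1.24, and Cdo1, which breaks down cysteine, 1.22. Dll3, a Notch ligand, and Pllp, a myelin membrane protein, were near 0 in PBS replicate 3 alone (1.92 and 1.34 CPM), and their log2 fold changes went from 1.82 to 1.24 and from 1.72 to 1.17 without it.

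**Figure D2:**
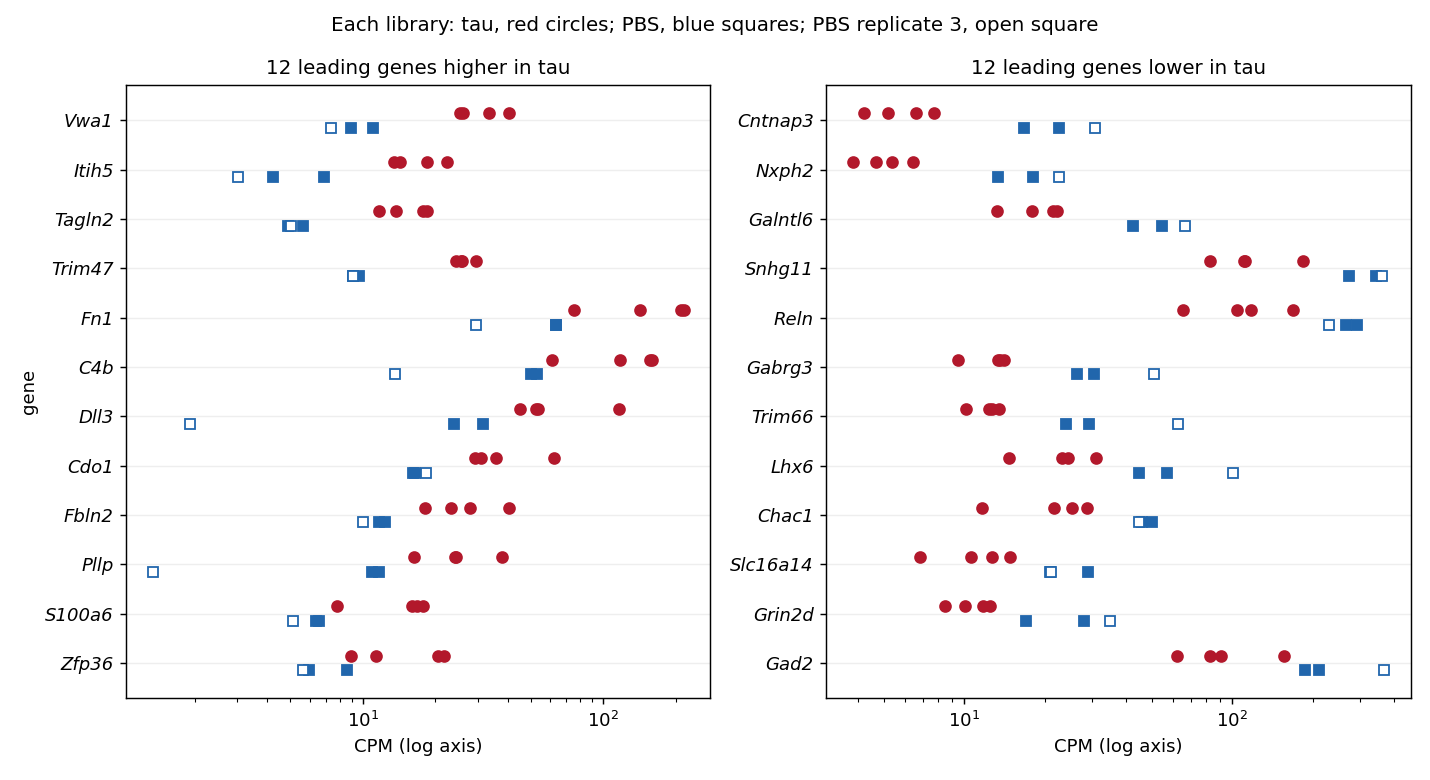
CPM (log axis) in each library of the 12 leading genes higher in tau (left) and the 12 lower in tau (right), tau as red circles, PBS as blue squares and PBS replicate 3 as an open square. By the rule that chose these genes no tau point crosses a PBS point, and the open square lies far from the other squares for Dll3, Pllp and C4b but among or beside them for Trim47, Tagln2, Chac1 and Cdo1.

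Among the 12 leading genes lower in tau, several belong to interneurons and synapses. Cntnap3, a neurexin-related cell adhesion protein, stood at 4.24, 7.71, 6.61 and 5.18 CPM in tau replicates 1 to 4 and 22.6, 16.7 and 30.6 CPM in PBS replicates 1 to 3, 3.93-fold lower in tau. Nxph2, a neurexophilin that binds neurexins, stood at 3.84, 6.42, 4.67 and 5.37 CPM in tau replicates 1 to 4 and 18.1, 13.4 and 22.6 CPM in PBS replicates 1 to 3. Reln, the secreted glycoprotein reelin that certain hippocampal interneurons and Cajal-Retzius cells make, stood at 117, 104, 169 and 65.3 CPM in tau replicates 1 to 4 and 293, 265 and 229 CPM in PBS replicates 1 to 3. In each of these 3 genes the PBS libraries kept apart from the tau libraries with or without PBS replicate 3, and the log2 fold changes without it were -1.71, -1.62 and -1.29. Lhx6, a transcription factor of interneurons born in the medial ganglionic eminence, had a log2 fold change of -1.54. Gad2, which makes GABA, was -1.39. Gabrg3, a GABA-A receptor subunit, was -1.51, and Grin2d, an NMDA receptor subunit found in interneurons, was -1.32. Snhg11, a long noncoding host RNA of neurons, stood at 112, 111, 183 and 82.6 CPM in tau replicates 1 to 4 and 343, 272 and 363 CPM in PBS replicates 1 to 3, and all 4 tau libraries were below all 3 PBS libraries. Galntl6, a glycosyltransferase-like protein, was -1.55, Trim66 -1.68 and Slc16a14, an orphan monocarboxylate transporter, -1.07.

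Interneuron genes had the lowest median of the 32 lists. Of 17 tested inhibitory neuron genes, 16 were lower in tau and 1 higher, at a median log2 difference of -1.20 against 0.012 over all genes. The unadjusted p was under 0.05 for 13, all lower (9.24% of all genes), and 8 were lower with no overlap between groups (9.8%). Without PBS replicate 3 the median was -0.82, 8 were lower at an unadjusted p under 0.05 (6.1% of all genes) and 8 had no overlap, where 13.8% of all genes then lay lower with no overlap. DESeq2 called 5 of the 17 lower (1.35% of all genes), and edgeR with the block and without PBS replicate 3 called 10 lower (1.95%). With the block and all libraries, 13 were lower at an unadjusted p under 0.05 (background 7.44%). Gad1, the main GABA-making enzyme, stood at 225, 295, 414 and 299 CPM in tau replicates 1 to 4 and 545, 487 and 1007 CPM in PBS replicates 1 to 3. Slc32a1, which loads GABA into vesicles, stood at 54.0, 72.6, 95.2 and 76.5 CPM in tau replicates 1 to 4 and 154, 134 and 229.9 CPM in PBS replicates 1 to 3, a log2 fold change of -1.21 ± 0.24 (SE) with an adjusted p of 0.297. Both were lower in all 4 tau libraries than in all 3 PBS libraries, and were highest in PBS replicate 3. Sst, the neuropeptide somatostatin, stood at 173, 163, 387 and 123 CPM in tau replicates 1 to 4 and 343, 317 and 750 CPM in PBS replicates 1 to 3: tau replicate 3 lay within the range of the PBS libraries while the other tau libraries were below it. The summed inhibitory level was 896 to 1595 CPM in tau and 1827 to 3382 CPM in PBS.

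Glutamatergic identity did not follow in one direction. Of 14 tested excitatory neuron genes 12 were lower and 2 higher, and their median was -0.64, or -0.32 without PBS replicate 3, when 8 were lower and 6 higher. Of them 7 were lower at an unadjusted p under 0.05 (9.24% of all genes), and 3 with the replicate block (7.44%). The summed level went the other way without PBS replicate 3: it was 1676 to 1992 CPM in tau and 1186 to 1264 CPM in PBS replicates 1 and 2, with 2329 CPM in PBS replicate 3. The sum is carried by Camk2a, the calcium-dependent kinase of excitatory neurons, which stood at 1059, 1003, 1045 and 1444 CPM in tau replicates 1 to 4 and 591, 589.8 and 913 CPM in PBS replicates 1 to 3. Camk2a was higher in every tau library, by 0.71 on the log2 scale and by 0.95 without PBS replicate 3. Slc17a6, a vesicular glutamate transporter, was lower in every tau library, 4.28, 3.51, 3.96 and 1.63 CPM against 9.11, 7.46 and 6.91 CPM in PBS. Slc17a7, the vesicular transporter of mature hippocampal excitatory neurons, had overlapping groups and a log2 fold change of -0.43 that became 0.16 without PBS replicate 3.

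General neuronal genes were also lower in most cases. Of 15 tested pan-neuronal genes 14 were lower, with a median of -0.65 that shrank to -0.20 without PBS replicate 3. Of them 9 were lower at an unadjusted p under 0.05 (9.24% of all genes), and 4 without PBS replicate 3 (6.1%). Syt1, the calcium sensor of vesicle release, stood at 274, 375, 512 and 349 CPM in tau replicates 1 to 4 and 677, 592 and 1202 CPM in PBS replicates 1 to 3, and no tau library reached a PBS library. Snap25, a SNARE protein of the release machinery, had a log2 fold change of -0.93, or -0.42 without PBS replicate 3, and its groups overlapped. Map2, a dendritic microtubule protein, differed by 0.15 ± 0.16 (SE) with overlapping groups.

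Receptor genes for glutamate and GABA were lower as a group. Of 21 tested glutamate receptor genes 16 were lower, 14 of them at an unadjusted p under 0.05 (9.24% of all genes) and 11 with no overlap (9.8% of all genes), and the median was -0.72. Without PBS replicate 3 the median was -0.39, with 9 lower at an unadjusted p under 0.05 (6.1% of all genes) and 11 with no overlap (13.8%). Gria1, an AMPA receptor subunit, stood at 224, 272, 365 and 230.2 CPM in tau replicates 1 to 4 and 457, 386 and 805 CPM in PBS replicates 1 to 3, all tau libraries below all PBS libraries. Gria2, the AMPA subunit that blocks calcium entry, had overlapping groups and a log2 fold change of -0.14 ± 0.14 (SE). Of 12 GABA-A receptor genes 11 were lower, 7 at an unadjusted p under 0.05 (9.24% of all genes), with a median of -0.83, or -0.32 without PBS replicate 3. Gabrg3 stood at 9.43, 13.6, 14.1 and 13.4 CPM in tau replicates 1 to 4 and 30.5, 26.3 and 51.0 CPM in PBS replicates 1 to 3, and the groups were apart with either set of PBS libraries.

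Presynaptic and postsynaptic genes differed in size. Of 18 presynaptic genes 17 were lower, 8 at an unadjusted p under 0.05 (9.24% of all genes), with a median of -0.63, or -0.21 without PBS replicate 3. Sv2a, a synaptic vesicle glycoprotein, stood at 168, 209.7, 231 and 169 CPM in tau replicates 1 to 4 and 335, 286 and 594 CPM in PBS replicates 1 to 3. Syp, synaptophysin, was -0.89 and -0.40 without PBS replicate 3, and Vamp2, a vesicle SNARE, was -0.61 and -0.22, with tau below PBS in every library for all 3 genes. Of 18 postsynaptic genes 13 were lower and 5 higher, with a median of -0.22, or -0.04 without PBS replicate 3, when 10 were lower and 8 higher. At an unadjusted p under 0.05, 2 were higher (4.66% of all genes) and 1 lower (9.24%). Shank3, a scaffold of excitatory synapses, was higher in every tau library, 242, 232, 181 and 311 CPM against 172, 172 and 166 CPM in PBS.

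**Figure D3:**
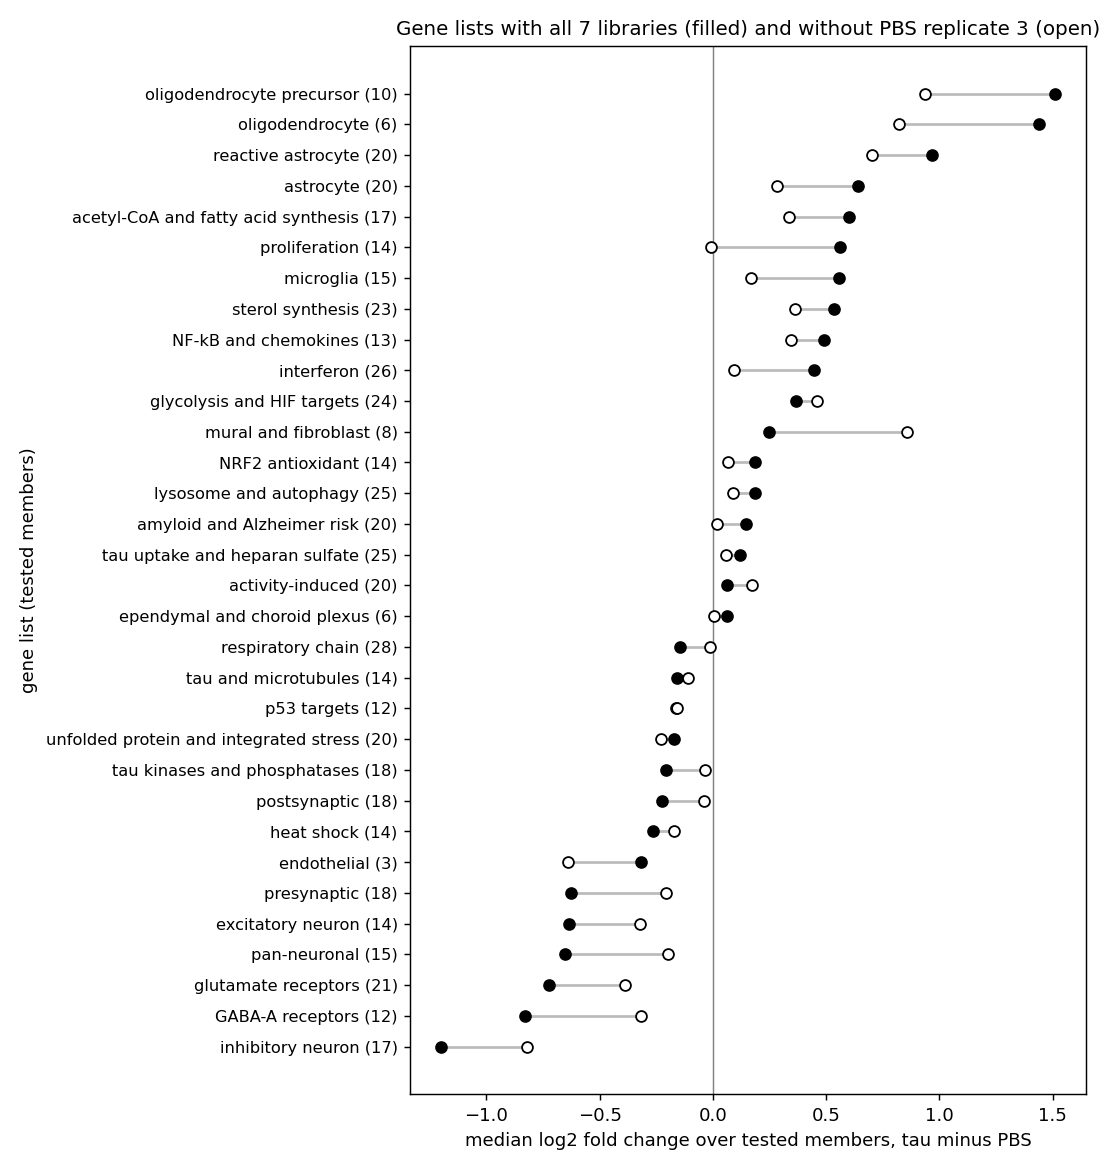
Median log2 fold change, tau minus PBS, over the tested members of each of 32 gene lists, with all 7 libraries (filled) and without PBS replicate 3 (open), and the number of tested members in brackets. The inhibitory neuron median is -1.20 filled and -0.82 open, and most glial and neuronal lists move toward 0 when PBS replicate 3 is left out.

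Because glial RNA differs between libraries, tau was also compared with PBS with the mean astrocyte list level of each library as a covariate. The median of the inhibitory neuron list was then -0.49, that of the glutamate receptors -0.31, that of the GABA-A receptors -0.20 and that of the pan-neuronal list -0.05. The presynaptic median was 0.0029 and the postsynaptic median 0.12, both above 0. The sterol synthesis median was 0.049, the acetyl-CoA and fatty acid median 0.040 and the oligodendrocyte precursor median 0.10, each far below its value without the covariate. The oligodendrocyte median turned to -0.40, the microglial median to -0.43, the interferon median to -0.089 and the proliferation median to -0.33. The reactive astrocyte median was 0.90, the glycolysis median 0.29 and that of the unfolded protein and integrated stress list -0.34. With this covariate edgeR called 19 genes at an adjusted p under 0.05, 13 higher and 6 lower. The covariate was 6.19 in PBS replicate 3 and 7.88 to 8.67 in the other libraries, so the fit leans on that library and does not compare libraries of matched astrocyte level. Astrocyte genes were themselves higher in tau, so the covariate may also take away part of a tau effect.

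Astrocyte genes were higher in tau, and reactive astrocyte genes more so. All 20 tested members of the astrocyte list were higher, with a median of 0.64, 5 of them at an unadjusted p under 0.05 (4.66% of all genes). Without PBS replicate 3 the median was 0.28, with 18 higher and 2 lower. Of 20 reactive astrocyte genes 18 were higher, with a median of 0.97 and 9 at an unadjusted p under 0.05 (4.66% of all genes). Without PBS replicate 3 that median was 0.70, and 19 were higher, 10 of them at an unadjusted p under 0.05 (6.13% of all genes). With the replicate block, 11 astrocyte and 14 reactive astrocyte genes were higher at an unadjusted p under 0.05, where 6.78% of all genes were.

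Serpina3n, a protease inhibitor of reactive astrocytes with close relatives in the genome, stood at 189, 154, 168 and 119 CPM in tau replicates 1 to 4 and 76.4, 79.8 and 67.1 CPM in PBS replicates 1 to 3. It was 2.12-fold higher with the groups well apart, and 1.01 higher on the log2 scale without PBS replicate 3. Gfap, the intermediate filament of astrocytes, stood at 4289, 3515, 1818 and 1805 CPM in tau replicates 1 to 4 and 1657, 1881 and 389.8 CPM in PBS replicates 1 to 3. For Gfap tau replicates 1 and 2 were above all PBS libraries and tau replicates 3 and 4 were not, so the groups overlapped, at a log2 fold change of 1.13. Slc1a3, an astrocyte glutamate transporter, was 0.38 with PBS replicate 3 and -0.10 without it. Gjb6, the gap junction protein connexin 30, stood at 2.92, 2.31, 6.61 and 5.42 CPM in tau replicates 1 to 4 and 0.843, 1.46 and 0.796 CPM in PBS replicates 1 to 3. These Gjb6 levels are low: in PBS replicate 1, 3 reads come to 0.506 CPM. Apoe, the lipid carrier that astrocytes secrete and the main genetic risk locus of late Alzheimer disease, stood at 5981, 4933, 4972 and 5478 CPM in tau replicates 1 to 4 and 2708, 3635 and 2826 CPM in PBS replicates 1 to 3. The lowest tau library exceeded the highest PBS library for Apoe, its log2 fold change was 0.81 ± 0.20 (SE) with an adjusted p of 0.306, and it was 0.75 without PBS replicate 3.

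Oligodendrocyte precursor genes were higher in all 10 members, with a median of 1.51, and 0.94 without PBS replicate 3. With it 0 were past an unadjusted p of 0.05 (4.66% of all genes were higher at that p), and without it 5 were (6.13%). Pdgfra, the growth factor receptor of these precursors, stood at 713, 690.4, 677 and 1234 CPM in tau replicates 1 to 4 and 422, 463 and 7.92 CPM in PBS replicates 1 to 3: the 4 tau libraries were above all PBS libraries, and replicate 4 was highest. Olig2, their transcription factor, stood at 332, 358, 448 and 600.4 CPM in tau and 275, 289.9 and 16.6 CPM in PBS, also with no overlap. Of 10 oligodendrocyte genes, 6 passed the filter on low counts and all 6 of these were higher, with a median of 1.44, or 0.82 without PBS replicate 3. Under the block 3 precursor genes and 5 oligodendrocyte genes were higher at an unadjusted p under 0.05 (6.78% of all genes), against 0 and 1 without it (4.66%). Mbp, myelin basic protein, stood at 98.4, 143, 21.0 and 36.1 CPM in tau replicates 1 to 4 and 19.2, 34.2 and 20.6 CPM in PBS replicates 1 to 3, high in tau replicates 1 and 2 and near the PBS level in the other two.

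Microglial and proliferation genes overlapped between the groups in nearly all cases. Of 15 tested microglial genes 14 were higher, with a median of 0.56, or 0.17 without PBS replicate 3, and 0 were past an unadjusted p of 0.05 or free of overlap. C1qa, a complement subunit made by microglia, stood at 68.6, 95.6, 20.8 and 4.75 CPM in tau replicates 1 to 4 and 45.0, 42.3 and 7.63 CPM in PBS replicates 1 to 3, high in tau replicates 1 and 2 and low in tau replicates 3 and 4 and PBS replicate 3. With the replicate block 11 of the 15 were higher at an unadjusted p under 0.05, where 6.78% of all genes were. In that fit tau replicate 4, the library with the least microglial RNA, does not bear on the difference. All 14 proliferation genes were higher with a median of 0.56, but 7 were higher and 7 lower without PBS replicate 3, and Top2a, a topoisomerase of dividing cells, stood at 92.7, 99.9, 154 and 145 CPM in tau replicates 1 to 4 and 153, 99.9 and 2.89 CPM in PBS replicates 1 to 3. Only 3 of 9 endothelial genes, 8 of 11 mural and fibroblast genes and 6 of 8 ependymal and choroid plexus genes passed the filter on low counts. Of the 8 mural and fibroblast genes 6 were higher and 2 lower, with a median of 0.25. Without PBS replicate 3 the median was 0.86, with 5 higher and 3 lower. Tagln, an actin-binding protein of smooth muscle, was higher in every tau library, 6.15, 4.94, 3.25 and 7.25 CPM against 2.19, 1.40 and 0.977 CPM in PBS. Dcn of the same list had overlapping groups and a log2 fold change of -1.41, or -0.35 without PBS replicate 3.

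Some genes of the integrated stress response were lower in the tau cultures and others were not. The integrated stress response slows general translation and raises ATF4, which switches on genes for amino acid supply and, when stress lasts, cell death. Of 20 tested unfolded protein and integrated stress genes 13 were lower and 7 higher, with a median of -0.17, and -0.23 without PBS replicate 3. At an unadjusted p under 0.05, 6 were lower and 1 higher, and the same counts had no overlap, where 9.24% of all genes were lower at that p and 9.8% were lower with no overlap. Asns, asparagine synthetase, stood at 113, 113, 67.2 and 98.4 CPM in tau replicates 1 to 4 and 165, 169.9 and 254 CPM in PBS replicates 1 to 3, with a log2 fold change of -1.01 ± 0.23 (SE) and an adjusted p of 0.306. Chac1, which breaks down glutathione, stood at 28.6, 25.1, 11.6 and 21.5 CPM in tau replicates 1 to 4 and 46.0, 49.9 and 44.7 CPM in PBS replicates 1 to 3. Chac1 was 2.16-fold lower, PBS replicate 3 lay close to the other PBS libraries for it, and its log2 fold change without that library was -1.15. Atf4 itself, named after its values were seen, stood at 212, 192, 113 and 166 CPM in tau replicates 1 to 4 and 251, 270 and 278 CPM in PBS replicates 1 to 3, and Ddit3 and Herpud1, also named after their values were seen, had log2 fold changes of -0.89 and -0.77. Psat1, an enzyme of serine synthesis, stood at 516, 477, 276 and 472 CPM in tau replicates 1 to 4 and 576, 690 and 209 CPM in PBS replicates 1 to 3, with overlapping groups and a log2 fold change of -0.18, or -0.54 without PBS replicate 3. Hspa5, the main chaperone of the endoplasmic reticulum, had overlapping groups and a log2 fold change of -0.092 ± 0.12 (SE).

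The promoters of Asns and Chac1 are shown because both genes were lower together and both windows hold the letters TGATGNAA, a form of the ATF4-type amino acid response element. Each window is the 250 bases before the RefSeq gene start on GRCm38.p6, 5′ to 3′ on the strand of the gene, with the match in capitals.
Asns, chr6:7693210-7693459, minus strand: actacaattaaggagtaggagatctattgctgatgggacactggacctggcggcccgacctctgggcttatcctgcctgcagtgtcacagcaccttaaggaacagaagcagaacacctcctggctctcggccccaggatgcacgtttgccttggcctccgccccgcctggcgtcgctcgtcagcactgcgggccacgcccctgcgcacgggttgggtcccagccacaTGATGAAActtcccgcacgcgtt
Chac1, chr2:119350992-119351241, plus strand: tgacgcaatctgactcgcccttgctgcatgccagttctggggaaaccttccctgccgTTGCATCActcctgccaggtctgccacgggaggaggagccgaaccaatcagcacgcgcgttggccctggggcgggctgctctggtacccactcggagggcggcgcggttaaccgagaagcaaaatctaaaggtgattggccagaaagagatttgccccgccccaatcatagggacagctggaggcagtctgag
The match begins 23 bases before the start of Asns and 193 bases before that of Chac1, where it reads on the opposite strand. In GENCODE the Asns gene begins further upstream, at 7693254, so the Asns match lies inside that annotated gene. TGATGNAA, searched on both strands, was in 3.45% of 32851 mouse promoter windows of that length and in the windows of 5 of 20 matched genes of this list. Of these 5, 4 were tested and all 4 were lower in tau. Of the 15 other tested genes 9 were lower and 6 higher. Atf3, named after its values were seen, has a match and differed by only -0.17, while Ddit3, at -0.89, has none. A role of the motif in these differences was not tested.

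Heat shock genes were lower by small amounts. Of 14 genes 11 were lower and 3 higher, with a median of -0.27, or -0.17 without PBS replicate 3, and 7 were lower with no overlap with either set of PBS libraries, against 9.8% of all genes with PBS replicate 3 and 13.8% without it. Hsph1, a partner of Hsp70 that helps to dissolve aggregates, stood at 143, 157, 144 and 155 CPM in tau replicates 1 to 4 and 184, 171 and 202 CPM in PBS replicates 1 to 3. Hspa8, the constitutive Hsp70, stood at 379, 419, 427 and 431 CPM in tau and 474, 472 and 650.3 CPM in PBS, and Hspa9, the mitochondrial Hsp70, differed by -0.42. With the replicate block, 1 of the 14 was lower at an unadjusted p under 0.05 (7.44% of all genes), against 7 without the block (9.24%). The p53 target Pmaip1, which promotes cell death, stood at 5.11, 5.86, 7.45 and 6.96 CPM in tau replicates 1 to 4 and 13.7, 9.35 and 17.1 CPM in PBS replicates 1 to 3, lower in every tau library. Of 12 p53 targets 8 were lower, 4 at an unadjusted p under 0.05 (9.24% of all genes), and 4 were higher, 0 at that p (4.66%).

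Genes of sterol synthesis, which the factor SREBP2 switches on together when cell cholesterol is low, were higher in all 23 members. The median was 0.54, with 7 at an unadjusted p under 0.05 (4.66% of all genes). It was 0.36 without PBS replicate 3, when all 23 were still higher and 4 were past that p (6.13% of all genes). With the replicate block 18 of 23 were higher at an unadjusted p under 0.05 (6.78% of all genes). Srebf2, which encodes SREBP2, stood at 343, 329, 275 and 399.8 CPM in tau replicates 1 to 4 and 251, 247 and 158 CPM in PBS replicates 1 to 3. Stard4, a cholesterol carrier and SREBP2 target, stood at 69.4, 61.0, 47.3 and 63.4 CPM in tau replicates 1 to 4 and 38.6, 40.0 and 24.7 CPM in PBS replicates 1 to 3. Both were higher in every tau library than in every PBS library. Hmgcs1, an early enzyme of the pathway, stood at 947, 885, 406 and 864 CPM in tau replicates 1 to 4 and 599, 629.9 and 288 CPM in PBS replicates 1 to 3, where tau replicate 3 was below PBS replicates 1 and 2. Of 17 genes of acetyl-CoA and fatty acid synthesis, the list that holds Acss2, 16 were higher and 1 lower, with a median of 0.60, or 0.34 without PBS replicate 3. Of the 17, 5 were higher at an unadjusted p under 0.05 (4.66% of all genes), and 10 with the replicate block (6.78%). Scd2, a fatty acid desaturase, was 0.79 ± 0.40 (SE), and Fads2, another desaturase, 0.81, both with overlapping groups. The summed sterol level was 1814 CPM in tau replicate 3 and 3136 to 3381 CPM in the other tau libraries.

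**Figure D4:**
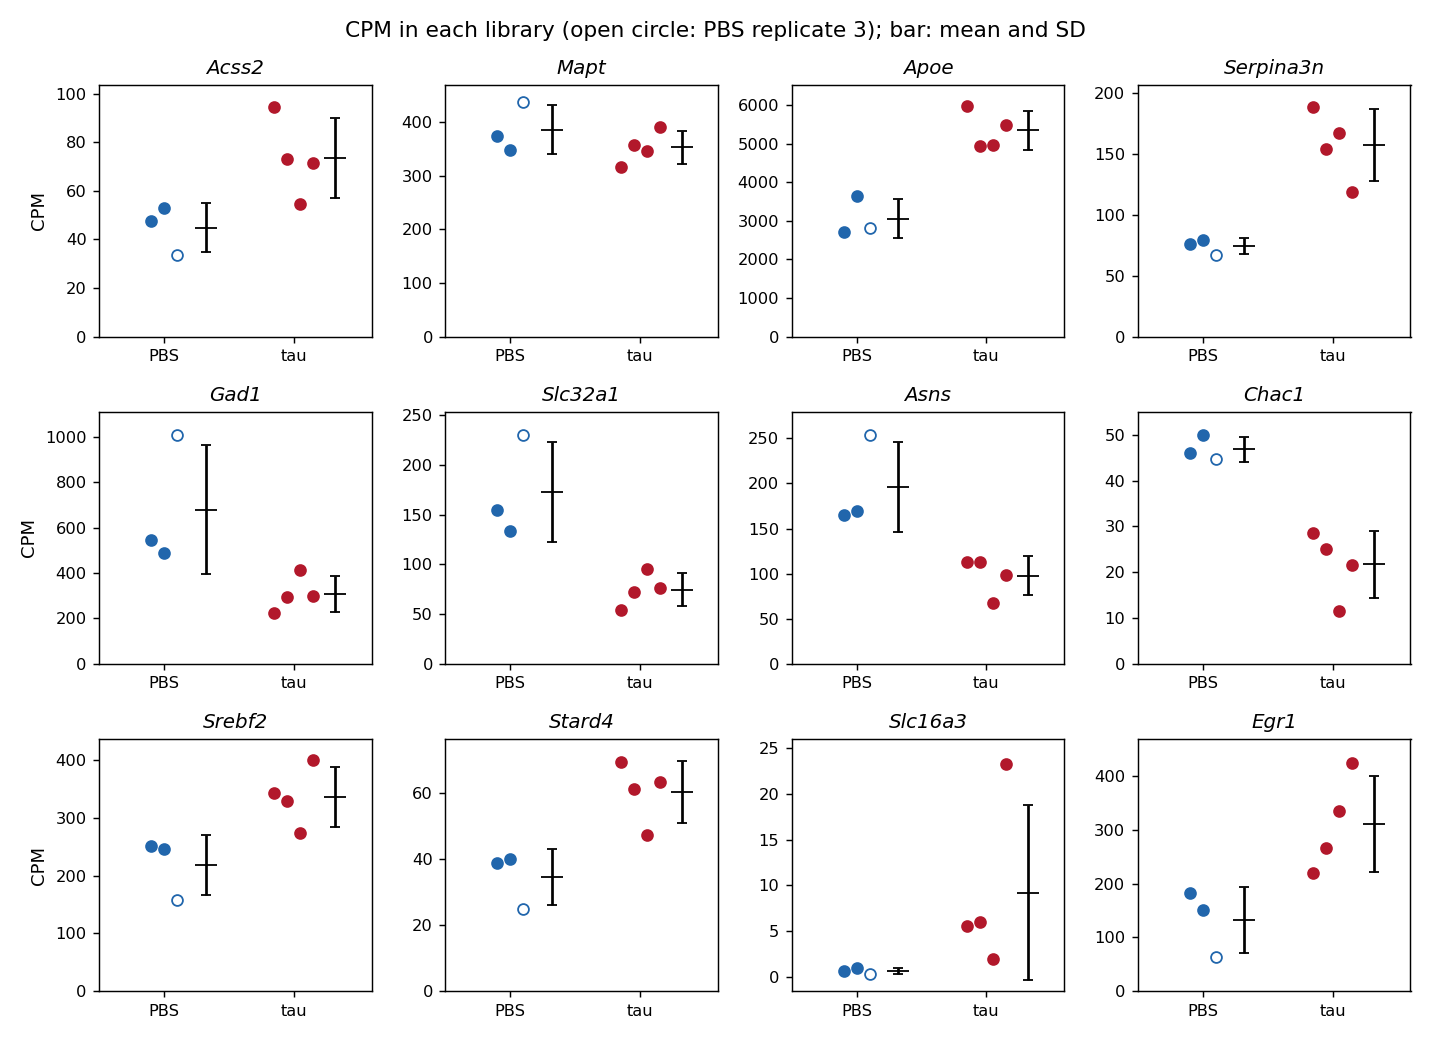
CPM in each library for 12 genes, PBS in blue and tau in red, with PBS replicate 3 as an open circle and the mean and SD as a bar (n = 3 PBS, n = 4 tau). Acss2, Apoe, Serpina3n, Srebf2, Stard4, Slc16a3 and Egr1 are higher in every tau library, Gad1, Slc32a1, Asns and Chac1 are lower in every tau library, and Mapt overlaps.

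Glycolysis and hypoxia-inducible genes were higher in 20 of 24 members, with a median of 0.37, and 0.46 without PBS replicate 3. Of these 7 were past an unadjusted p of 0.05 (4.66% of all genes), or 5 without PBS replicate 3 (6.13%). Slc16a3, the lactate exporter MCT4 of glycolytic cells, had the largest fold among the tested list genes, 13.6, on low levels: it stood at 5.59, 6.05, 1.94 and 23.3 CPM in tau replicates 1 to 4 and 0.675, 1.01 and 0.326 CPM in PBS replicates 1 to 3. Tau replicate 4 was far above the other tau libraries, which were still above all PBS libraries. Gpi1, a glycolytic isomerase, stood at 599, 534, 389 and 758 CPM in tau replicates 1 to 4 and 383, 399.7 and 466 CPM in PBS replicates 1 to 3, again highest in tau replicate 4, with tau replicate 3 among the PBS libraries. The promoter window of Slc16a3 is shown because the gene differed most and because its window holds ACGTG, the core that hypoxia-inducible factors bind, more than once.
Slc16a3, chr11:120948817-120949066, plus strand: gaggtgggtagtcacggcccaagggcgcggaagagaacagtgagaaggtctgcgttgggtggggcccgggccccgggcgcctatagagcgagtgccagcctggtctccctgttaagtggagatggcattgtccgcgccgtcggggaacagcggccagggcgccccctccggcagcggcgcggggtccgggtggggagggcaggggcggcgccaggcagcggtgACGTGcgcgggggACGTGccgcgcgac
The capitals mark ACGTG, beginning 27 and 14 bases before the RefSeq start. In GENCODE the Slc16a3 gene begins further upstream, at 120948480, so the whole window lies inside that annotated gene. ACGTG, searched on both strands, also lies within the E-box CACGTG. It was in 16.6% of 32851 windows and in 17 of 36 windows of the 23 matched genes of this list. Of 14 genes with a match 13 were higher in tau and 1 lower. Of the matched genes without it 7 were higher and 2 lower. A role of ACGTG in these differences was not tested.

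Neuronal activity genes did not move as one list. Of 20 genes 12 were higher and 8 lower, with a median of 0.064, or 0.17 without PBS replicate 3, when 15 were higher. Past an unadjusted p of 0.05 were 5 higher (4.66% of all genes) and 1 lower (9.24%). Without PBS replicate 3, 6 were higher (6.13%) and 0 lower (6.1%). Egr1, an early transcription factor, stood at 219.6, 266, 335 and 425 CPM in tau replicates 1 to 4 and 182, 151 and 64.0 CPM in PBS replicates 1 to 3, with all tau libraries above all PBS libraries. Fos, part of the AP-1 factor, stood at 193, 222, 69.4 and 209.8 CPM in tau replicates 1 to 4 and 78.8, 70.0 and 27.1 CPM in PBS replicates 1 to 3, where tau replicate 3 lay among the PBS libraries. Ier2, another early gene, stood at 38.5, 51.5, 40.0 and 58.8 CPM in tau replicates 1 to 4 and 29.4, 21.5 and 12.2 CPM in PBS replicates 1 to 3. Junb, a partner of Fos, was 0.99 higher on the log2 scale and 1.25 without PBS replicate 3.

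Most inflammatory and antioxidant genes were higher with all libraries. Without PBS replicate 3 fewer interferon and antioxidant genes were higher, but not fewer NF-kB and chemokine genes. Of 26 tested interferon genes 24 were higher, with a median of 0.45, but without PBS replicate 3 the median was 0.095, 15 were higher and 11 lower, and 0 were past an unadjusted p of 0.05. Of 13 tested NF-kB and chemokine genes 10 were higher, 4 at an unadjusted p under 0.05 with either set of PBS libraries (4.66% of all genes with PBS replicate 3, 6.13% without it). The NF-kB and chemokine median was 0.49, or 0.345 without PBS replicate 3, when 11 were higher and 2 lower. At an unadjusted p under 0.05, 2 interferon genes were higher (4.66% of all genes), and with the replicate block 5 interferon and 7 NF-kB and chemokine genes were (6.78%). Cxcl10, a chemokine, stood at 1.96, 1.62, 1.07 and 2.16 CPM in tau replicates 1 to 4 and 0.506, 0.617 and 0.217 CPM in PBS replicates 1 to 3, low levels with every tau library higher, a 3.86-fold difference with an adjusted p of 0.306. Nfkbia, the NF-kB inhibitor that NF-kB itself induces, stood at 34.8, 32.6, 33.2 and 30.3 CPM in tau replicates 1 to 4 and 24.5, 26.8 and 21.7 CPM in PBS replicates 1 to 3, a small difference with tight groups. Of 14 NRF2 antioxidant genes 13 were higher with a median of 0.19, but 7 were higher and 7 lower without PBS replicate 3. Nqo1, a quinone reductase, stood at 3.0, 3.42, 3.33 and 2.59 CPM in tau replicates 1 to 4 and 1.35, 2.01 and 0.615 CPM in PBS replicates 1 to 3, 2.32-fold higher in tau and 0.80 higher on the log2 scale without PBS replicate 3. Gstm1, a glutathione transferase, stood at 744, 714, 736 and 756 CPM in tau replicates 1 to 4 and 554, 655 and 439.9 CPM in PBS replicates 1 to 3, higher in every tau library.

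Lists of genes that make, modify and take up tau had small medians, while some single members differed more. Of 14 tau and microtubule genes 11 were lower, 4 at an unadjusted p under 0.05 (9.24% of all genes), with a median of -0.16, or -0.11 without PBS replicate 3. Map1b, a microtubule protein of growing axons, stood at 415, 483, 419.5 and 341 CPM in tau replicates 1 to 4 and 668, 578 and 808 CPM in PBS replicates 1 to 3. Tubb3, the neuronal beta-tubulin, stood at 86.2, 115, 92.2 and 116 CPM in tau replicates 1 to 4 and 173, 154 and 193 CPM in PBS replicates 1 to 3. Both were lower in every tau library, with log2 fold changes of -0.59 and -0.68 without PBS replicate 3, while the groups of Mapt overlapped. Of 18 tau kinases and phosphatases 15 were lower, with a median of -0.21, but 9 were higher and 9 lower without PBS replicate 3. Ttbk2, a tau tubulin kinase, stood at 47.4, 50.3, 55.2 and 49.2 CPM in tau and 70.0, 57.6 and 87.3 CPM in PBS. Of 25 genes of tau uptake and heparan sulfate 17 were higher and 8 lower, or 18 and 7 without PBS replicate 3. Lrp1, the uptake receptor, stood at 1225, 1049, 1016 and 1149 CPM in tau replicates 1 to 4 and 810.2, 918 and 389.9 CPM in PBS replicates 1 to 3, with every tau library higher, and Hs6st3, which sulfates heparan chains, was lower in every tau library, 1.08, 1.34, 1.43 and 1.30 CPM against 3.37, 2.43 and 4.59 CPM in PBS. Of 20 amyloid and Alzheimer risk genes 13 were higher and 7 lower, or 11 and 9 without PBS replicate 3. App, the amyloid precursor, had overlapping groups at a log2 fold change of -0.54. Lysosome and autophagy genes had a median of 0.19 over 25 genes and respiratory chain genes -0.14 over 28. Without PBS replicate 3 these medians were 0.089 and -0.013. With the replicate block 10 lysosome and autophagy genes, 6 tau uptake genes and 3 amyloid and Alzheimer risk genes were higher at an unadjusted p under 0.05 (6.78% of all genes), against 0, 2 and 1 without it (4.66%). Lower at that p were 6 tau kinases and phosphatases and 3 respiratory chain genes (9.24% of all genes), and with the block 3 and 0 (7.44%).

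The same agent was also given to neurons that carried the vector virus, at rest and after stimulation, each with 3 tau and 3 PBS cultures at day 21. Compared with those cultures, some lists had medians of the opposite sign and others kept theirs. The median of the astrocyte list was 0.64 without virus, -0.58 in resting vector neurons and -0.53 in stimulated vector neurons, and that of the reactive astrocyte list 0.97, -0.82 and -1.05. The presynaptic medians were -0.63, 0.35 and 0.12. The inhibitory neuron list had a negative median in each (-1.20, -0.12 and -0.32) and the microglial list a positive one (0.56, 0.99 and 0.95, the vector values over 6 and 3 tested genes). The oligodendrocyte precursor medians were 1.51, 0.13 and -0.028. Sterol synthesis had a positive median in each (0.54, 0.30 and 0.28), and so did glycolysis (0.37, 0.43 and 0.33). These medians without virus include PBS replicate 3. Without it they were 0.28 for the astrocyte list, 0.70 for reactive astrocytes and -0.21 for presynaptic genes. They were -0.82 for inhibitory neurons, 0.17 for microglia and 0.94 for oligodendrocyte precursors. Sterol synthesis was then 0.36 and glycolysis 0.46. Virus, culture, count table and gene annotation all differ between these sets of libraries and cannot be told apart.

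**Figure D5:**
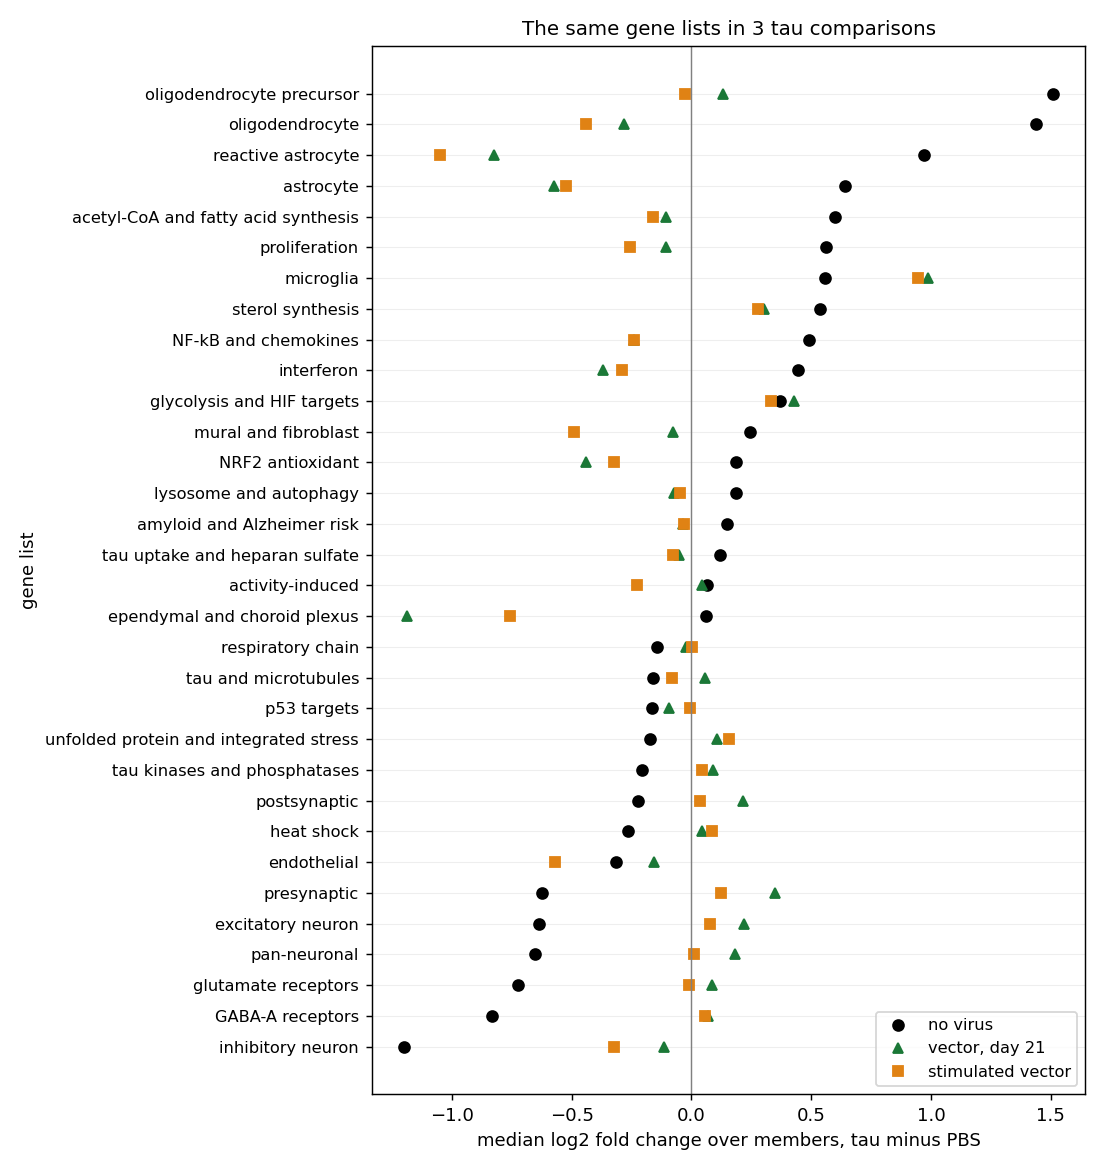
Median log2 fold change, tau minus PBS, over the members of each gene list in cultures without virus (circles), in resting vector neurons at day 21 (triangles) and in stimulated vector neurons (squares). The circles include PBS replicate 3. Astrocyte lists lie right of 0 without virus and left of 0 with the vector, presynaptic and receptor lists lie left of 0 without virus and near or right of 0 with it, and sterol synthesis and glycolysis lie right of 0 in each.

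The difference between the tau effects was tested gene by gene as an interaction with edgeR. Against resting vector neurons, 1 of 15069 genes (0.00664%) passed an adjusted p of 0.05. It is Trpc5, a calcium-permeable channel, named after its values were seen: it stood at 0.679, 0.369, 0.515 and 0.768 CPM in tau replicates 1 to 4 and 2.70, 2.14 and 3.04 CPM in PBS replicates 1 to 3, and its tau effect without virus was lower by 2.51 on the log2 scale. It did not remain past the threshold without tau replicate 1 or 3, PBS replicate 1 or 3, any vector tau library, or vector PBS replicate 1 or 3, nor with the replicate block, each giving 0 genes, while 2 genes passed without vector PBS replicate 2. At an unadjusted p under 0.05, 12 reactive astrocyte genes had a higher tau effect without virus (background 6.32%) and 11 presynaptic genes a lower one (background 9.56%). These list counts include PBS replicate 3.

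Against stimulated vector neurons, 45 of 15074 genes (0.299%) passed, 24 with a higher and 21 with a lower tau effect without virus. Among the genes described above these were Trim47 (interaction 2.75, adjusted p 0.0331), Itih5 (2.63), Tagln2 (2.59), Tagln (2.54), Serpina3n (1.69) and Vwa1 (1.64) on the higher side. On the lower side were Trpc5 (-2.505), Snhg11 (-1.90), Grin2d (-1.79), Gabrg3 (-1.74) and Galntl6 (-1.72). Most of these genes were named for their difference without virus, which is part of the interaction, so that choice favours finding them here. For Serpina3n the log2 fold change was 1.08 without virus and -0.62 in the stimulated vector neurons. The count of 45 was 3, 3 and 4 without tau replicates 1, 2 and 3, and 0 without PBS replicate 1, any stimulated vector tau library or stimulated vector PBS replicate 1 or 3. It was 37 without tau replicate 4, 54 without PBS replicate 3, 24 without stimulated vector PBS replicate 2, 1223 without PBS replicate 2 and 0 with the replicate block. At an unadjusted p under 0.05, 17 reactive astrocyte genes had a higher tau effect without virus (background 8.63%) and 12 presynaptic genes a lower one (background 14.2%), again with PBS replicate 3 included. For Acss2 the interaction was 0.66 against resting vector neurons and 0.82 against stimulated ones, with adjusted p of 0.295 and 0.141.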

How the data were processed

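The authors deposited raw read counts per gene for the 7 libraries in 1 table of 55367 named genes. STAR, featureCounts, HTSeq, DESeq2 and the mm10 build are named in the submitters' processing notes, while versions, roles, gene annotation and strand setting are not given in the sources used here. Without a stated strand setting, reads of a gene and of an antisense or overlapping partner cannot be told apart. Libraries were made from 130 ng of RNA with an NEB kit, per the labels' protocols. A row with no gene name held 6.13% to 8.74% of the reads and was left out of library sizes and tests.

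From these counts, CPM were computed on TMM-scaled library sizes, and tau was tested against PBS with edgeR 4.0.16 (quasi-likelihood F test, filterByExpr, Benjamini-Hochberg threshold 0.05) in R 4.3.3. DESeq2 1.42.0, other size factors, no filter on low counts, each library left out, the replicate number as a block and the astrocyte list score as a covariate were alternatives. DESeq2 without PBS replicate 3 was added after seeing the data. Same-numbered tau and PBS libraries deviated together from their group means (correlations 0.235, 0.22 and 0.394), and the numbers were taken to pair them because each was over 0.1. This pairing comes from the data, not from a label, and numbers 1 and 2 were not distinct in it: tau replicate 1 correlated at 0.325 with PBS replicate 2, and tau replicate 2 at 0.194 with PBS replicate 1. The fits with the block use those same data, so they cannot show that the pairing is right. Interactions used the 24754 gene symbols shared with the tables of the vector cultures. On simulated counts for tau against PBS, 18.4% of 196 genes changed 2-fold and 83.4% of 193 genes changed 4-fold were recovered.

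The 32 gene lists hold 557 genes, of which 530 passed the filter. The samples and lists were chosen with earlier results of these data known. Named are Acss2, Mapt, from each list the 3 genes of highest mean level and the gene of lowest unadjusted p, and 12 leading genes in each direction. Leading genes had groups that did not overlap, a log2 CPM averaging 3 or more and the same direction without PBS replicate 3, and were ranked by the smaller of their differences with and without it. Promoter windows are from RefSeq on GRCm38.p6, and gene positions are from GENCODE on GRCm38, which matched 16063 of the 16341 tested symbols.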

Additional observations from a re-analysis of the deposited data

Results flagged for a closer look

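In 8 of 116 sets of 4 tau libraries checked, 1 library lay far from the other 3 by Dixon's test at 95%, where chance gives about 5.8. Tau replicate 3 was low for the sterol synthesis list, at a mean log2 CPM of 5.524 against 6.217 to 6.326, and for Hmgcs1, at 406 CPM against 864 to 947 CPM. Tau replicate 4 was high for Dll3, at 116 CPM against 45.1 to 53.3 CPM, for Pdgfra, at 1234 CPM against 677 to 713 CPM, and for Camk2a, at 1444 CPM against 1003 to 1059 CPM. Tau replicate 1 was low for Gabrg3, at 9.43 CPM against 13.4 to 14.1 CPM, and for the respiratory chain list, at a mean log2 CPM of 7.026 against 7.117 to 7.134. Tau replicate 2 was high for the heat shock list, at 6.229 against 6.144 to 6.155.

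The tau effect differed from that in stimulated vector neurons by the interaction test with edgeR for 11 of the genes described. On the log2 scale the difference was 2.75 for Trim47, 2.63 for Itih5, 2.59 for Tagln2, 2.54 for Tagln, 1.69 for Serpina3n and 1.64 for Vwa1. It was -2.505 for Trpc5, -1.90 for Snhg11, -1.79 for Grin2d, -1.74 for Gabrg3 and -1.72 for Galntl6. Against resting vector neurons it was -2.51 for Trpc5. Most of these genes were named for their difference without virus, or after their values were seen, which favours finding them here. With the replicate block, and without some single libraries, 0 genes passed either interaction test.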

How the results depend on the processing

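The count of genes past edgeR's adjusted threshold, 0, stayed 0 when any 1 library was left out and with the replicate block. It was 1 with relative log expression size factors, 1 with no filter on low counts, 19 with the astrocyte list score as a covariate, 330 with DESeq2, 354 with DESeq2 without PBS replicate 3, and 852 with the replicate block and without PBS replicate 3. At an unadjusted p under 0.05 the count of 2272 ran from 1202 to 3493 when 1 library was left out, and was 3512 with the replicate block and without PBS replicate 3. The share of these calls that were higher in tau was 33.5%, and 47.7% with the replicate block, 49.6% with the covariate and 50.1% without PBS replicate 3. The interaction count against resting vector neurons, 1, was 178 with DESeq2, 0 with the replicate block and 0 to 2 with 1 library left out. That against stimulated vector neurons, 45, was 1110 with DESeq2, 0 with the replicate block and 0 to 1223 with 1 library left out. The block put no gene of tau against PBS past the adjusted threshold, and the list counts at an unadjusted p that it moved are given with each list. With the astrocyte score as a covariate the log2 fold change reversed for Mapt (0.0218), Slc17a7 (0.424), Gria2 (0.0266), Slc1a3 (-0.654), C1qa (-0.608), Top2a (-0.488), Hmgcs1 (-0.054) and Fads2 (-0.0726). With 1 library left out it ran from -0.691 to 0.162 for Slc17a7, -0.0952 to 0.796 for Slc1a3 and -0.0287 to 1.25 for Top2a, reversed without PBS replicate 3, and from -0.00653 to 0.977 for C1qa, reversed without tau replicate 2, and from -0.542 to 0.144 for Psat1, reversed without PBS replicate 2. The medians of 18 lists moved by more than the spread between libraries with the covariate, 7 without PBS replicate 3, 1 without PBS replicate 1 and 1 without tau replicate 3, the astrocyte median itself turning to -0.144 with the covariate built from it. The cause was not tested. PBS replicate 1 has the fewest reads, which limits the precision of low genes in it.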
